A study of Mus musculus with 13 samples.

Results

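The mitochondrial ribosomal protein genes were taken as all genes of the table whose symbol begins with Mrpl or Mrps followed by a number, a rule that uses names and no measured value. It found 76 of the 13222 listed genes, 48 of them Mrpl genes, named for the large subunit, and 28 Mrps genes, named for the small subunit. Reads were sufficient to test 75 of them among the 12319 genes tested, and the exception was Mrpl24, which had no read in 6 of 13 libraries and at most 13 in any other. Genes of this family that the table does not list, such as Mrps18b and Mrpl36, were not analysed here.

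Mitochondria carry their own ribosome, which translates the few proteins encoded by mitochondrial DNA, all of them subunits of the respiratory chain and ATP synthase. Its ribosomal RNAs are transcribed inside the organelle, whereas all of its proteins are made from nuclear genes on cytosolic ribosomes and imported. Some of these proteins have counterparts in bacterial ribosomes, and others were added in mitochondria. In the lists used here, Mrpl1 to Mrpl36 and Mrps1 to Mrps21 counted as bacterial homologs (42 genes) and the later numbers as mitochondria-specific (34 genes). The numbering is not a perfect guide to position, since the products of Mrps18a and Mrps30 sit in the large subunit and the product of Mrps36 is a part of the 2-oxoglutarate dehydrogenase complex.

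The cells were 4T1-Thy1.1, a line derived from 4T1 mammary carcinoma of BALB/c mice that carries a Thy1.1 transgene, a trait that all groups share. The labels give DMEM/F12 with FBS as the medium and the methods of the study RPMI with FBS for the line in general. Over 48 h the cells were left untreated (control, n = 3), or exposed to the topoisomerase poison doxorubicin at 200 ng/mL (DOX, n = 4), to DOX at 200 ng/mL with the recombinant mouse cytokine IL-17A at 25 ng/mL (DOX+IL-17A, n = 3), or to IL-17A alone at 25 ng/mL (IL-17A, n = 3). The study asked how IL-17A alters the response of these cells to DOX. The data come from a single cell line in culture, and the labels do not say whether libraries of a group came from separate cultures, so p-values measure only the spread between these libraries.

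Values are given in TMM-normalized units made from reads of transcript 3′ ends, so that they do not depend on transcript length. The 13 libraries held 4445592 to 16930600 reads on listed genes, and 3 reads, taken as the lowest detectable level, correspond to 0.183 to 0.613 units. Without molecular identifiers, several reads may stem from 1 molecule, so this limit reflects counting error alone. Control replicate 1 stood apart from the other control libraries, and 32.5% of the genes tested differed there by more than 2-fold from the mean of the other control libraries (1 unit added to each value). DOX replicate 1 had the highest summed level of skeletal muscle markers (339 units, against 10.6 to 55.1 elsewhere) and of red blood cell markers (66.5 units, against 0 to 14.4). The sum of 5 mammary carcinoma markers was 1066 to 1615 units in the libraries without DOX and 549 to 746 units in those with DOX. Fits that left out each library in turn are described below. The part of the marker differences in the results was not otherwise tested. In bulk RNA, fewer cells of a type and less RNA per cell cannot be told apart.

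Most mitochondrial ribosomal protein genes were expressed at a moderate level. Their means over the 13 libraries had a median of 52.8 units, against 21.9 units for all genes tested, and 8 of 76 reached 100 units. Mrpl33, which encodes a small protein of the large subunit, had the highest mean at 220.5 units, followed by Mrpl13 at 209 units and Mrps21 at 153 units. Mrpl33 ranged from 88.0 to 284 units over the libraries and its lowest value was in control replicate 1. The order of the highest pair does not hold beyond this spread, because Mrpl13 was above Mrpl33 in control replicate 1, in DOX replicate 2 and in all 3 DOX+IL-17A libraries. At the other end, Mrpl12 (mean 1.38 units, 0 to 29 reads per library), Mrps17 (mean 1.02 units, 0 to 28 reads) and Mrpl24 (mean 0.322 units) were near the lowest detectable level. The protein of Mrpl12 pairs with that of Mrpl10 in the ribosomal stalk, and Mrpl10 had a mean of 49.2 units in the same libraries. Reads at the 3′ end could be shared with exons of a neighbouring gene for 7 of 76 members, including all 310 bases examined for Mrpl24, and the strand setting of the counting is not given in the sources used here.

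In DOX-treated cells, more mitochondrial ribosomal protein genes were higher than lower, by a small amount for most. Of 75 tested genes, 13 rose with DOX compared to control (17.3%, against 12.4% of all genes tested) and 2 fell (2.67%, against 9.71%), at an adjusted p under 0.05 with limma. The log2 fold change was above 0 for 56 genes (54.6% of all genes tested) and below 0 for 19 (45.4%), and its median was 0.35, against 0.09 for all genes tested. All DOX libraries lay above all control libraries for 20 genes (18.5% of all genes tested) and below them for 5 (15.2%). At an unadjusted p under 0.05, 29 of the 75 genes passed (36.5% of all genes tested). The count that rose was thus close to the background share, and the direction counts and the median were farther from it. Fold changes here and below are on the log2(value + 1) scale, which understates the change of genes with low values.

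**Figure D1:**
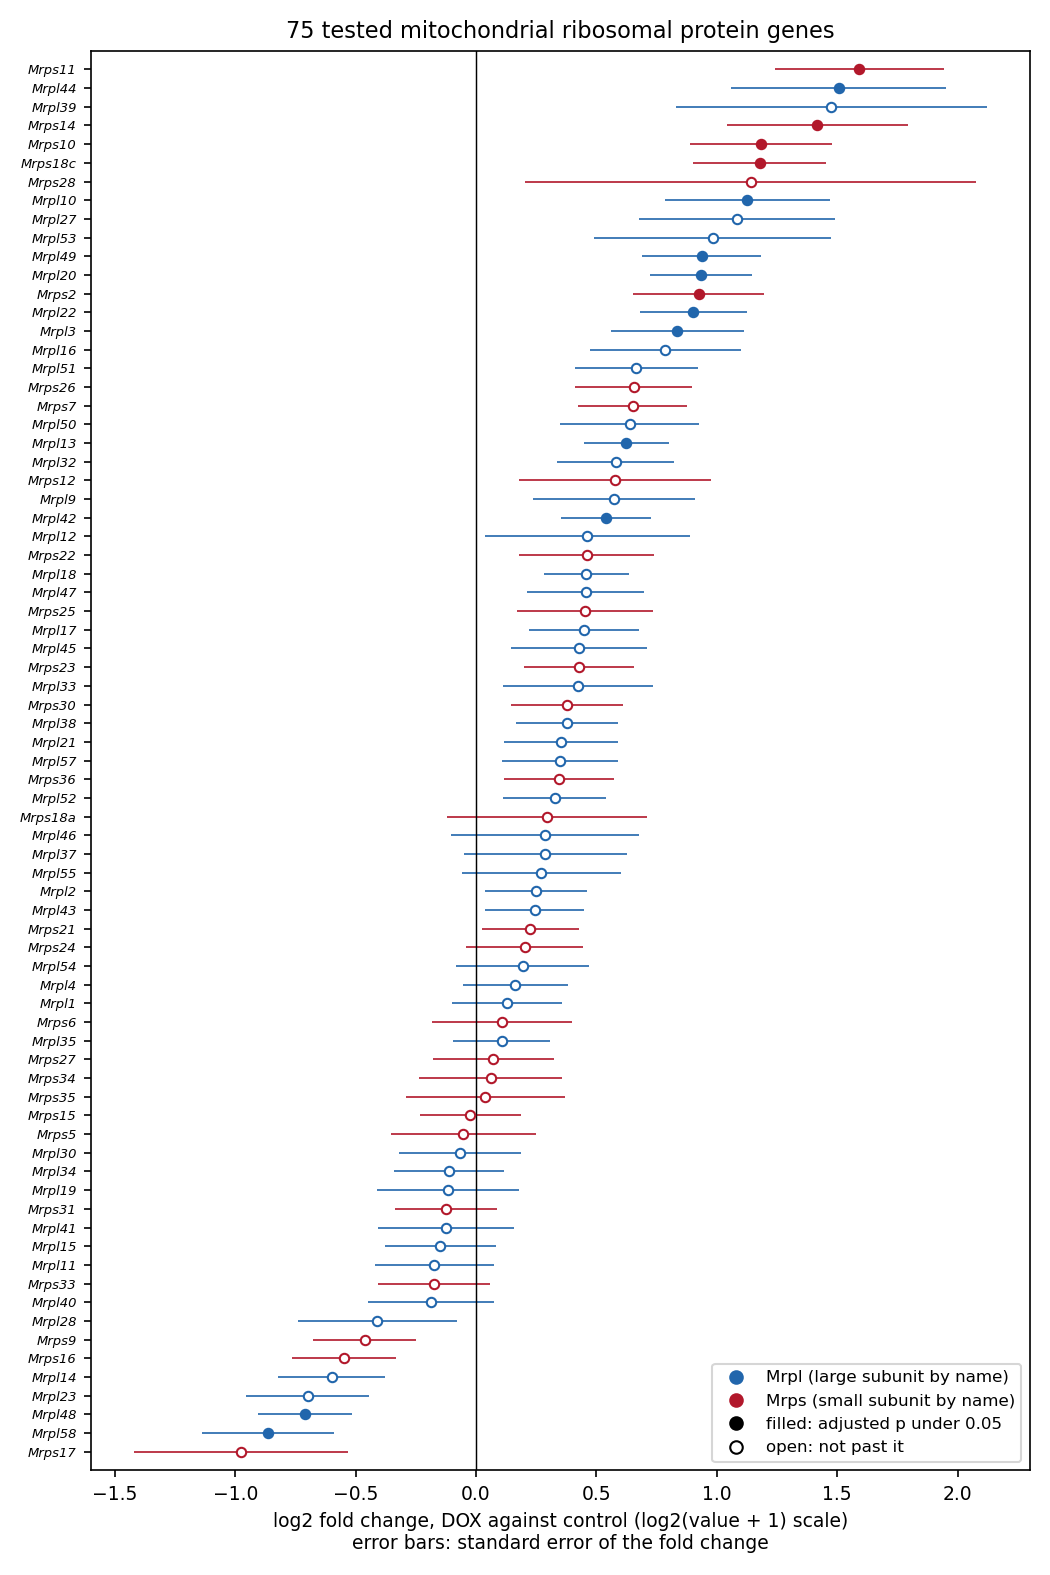
Log2 fold change of each of the 75 tested genes in DOX against control, with the standard error as bars; colours mark the subunit by name and filled points the genes past an adjusted p of 0.05. Of all points, 56 lie to the right of 0 and 19 to the left, and 15 are filled.

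The same shift appeared in the share of all reads that fell on these genes. The 76 genes together took 0.364%, 0.370% and 0.376% of reads in the control libraries and 0.389%, 0.361% and 0.371% in the IL-17A libraries. With DOX they took 0.454%, 0.498%, 0.527% and 0.539%, and with DOX+IL-17A 0.500%, 0.490% and 0.546%. Libraries with and without DOX did not overlap. The mean share was 1.36 times the control in DOX and 1.37 times that of IL-17A in DOX+IL-17A. The sum of TMM-normalized values, which allows for RNA composition, was 1.20 and 1.18 times as high in these comparisons, with TMM factors of 1.03 to 1.11 in the DOX libraries against 0.898 to 0.970 in the controls. Scaling by library size alone moved the median of all genes in DOX against control from 0.09 to 0.24, and the median of the members exceeded it by 0.26 with TMM and by 0.28 with library size alone.

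**Figure D2:**
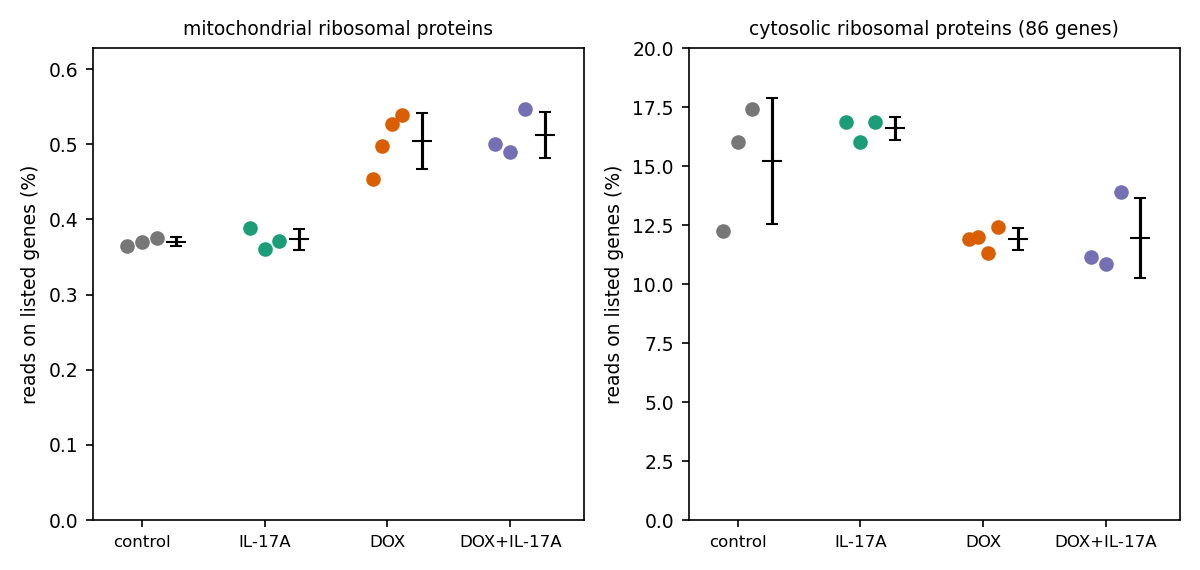
Percent of reads on listed genes that fell on mitochondrial ribosomal protein genes (left) and on cytosolic ribosomal protein genes (right), with 1 point per library and the mean and SD of each group. The mitochondrial ribosomal protein genes took 0.361% to 0.389% of reads in the libraries without DOX and 0.454% to 0.546% in those with DOX.

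Of 28 tested genes with Mrps names, 5 rose in DOX against control and 0 fell (12.4% and 9.71% of all genes tested). The largest fold change of all members was that of Mrps11. Mrps11 (chr7:78783119-78792989, plus strand), whose product lies on the platform of the small subunit, was at 1.86, 5.30 and 4.13 units in control replicates 1, 3 and 5 and at 11.3, 14.5, 12.3 and 12.7 units in DOX replicates 1 to 4. All DOX values were above all control values, and the mean was 3.37 times as high (log2 fold change 1.59 ± 0.35 SE, adjusted p = 0.00551, limma). Mrps14 (chr1:160195215-160202170, plus strand), which encodes an RNA-binding protein of the head, was at 13.03, 54.0 and 34.9 units in the controls and 66.7, 82.9, 81.1 and 90.4 units with DOX. The groups again did not overlap, with control replicate 1 far below the other controls (log2 fold change 1.42 ± 0.38 SE, adjusted p = 0.0151). Mrps10 (chr17:47368887-47381417, plus strand), another protein of the head, was at 15.7, 25.9 and 44.3 units in the controls and 58.4, 62.2, 57.5 and 66.8 units with DOX. It rose in every DOX library compared to the highest control (log2 fold change 1.19 ± 0.30 SE, adjusted p = 0.0105). Mrps18c (chr5:100798627-100804471, plus strand) was at 19.8, 40.3 and 34.7 units in the controls and 57.2, 78.7, 69.6 and 75.6 units with DOX, without overlap (log2 fold change 1.18 ± 0.28 SE, adjusted p = 0.00763).

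Mrps18c is one of the mammalian paralogs of the bacterial S18 protein, and its product is the member of that set that takes the bacterial position. Its paralog Mrps18a did not pass the test (log2 fold change 0.30 ± 0.42 SE, adjusted p = 0.639), with 72.9, 15.8 and 17.3 units in the controls and 36.1, 32.2, 37.9 and 29.4 units with DOX. Control replicate 1 was there above every DOX library, while the other controls were below them all. Mrps2, also of the small subunit, was at 16.9, 37.3 and 38.2 units in the controls and 50.7, 75.5, 47.8 and 53.2 units with DOX. It rose without overlap (log2 fold change 0.93 ± 0.27 SE, adjusted p = 0.0246). Among other small subunit genes with a known role, Mrps7 and Mrps16 missed the threshold although their groups did not overlap, with log2 fold changes of 0.65 ± 0.23 and -0.55 ± 0.22 (SE; adjusted p = 0.0509 and 0.0789). On the recovered reads, voom and DESeq2 called Mrps7 higher (adjusted p = 0.0438 and 0.0448) and DESeq2 called Mrps16 lower (adjusted p = 0.0291). The 3′ end of Mrps7 overlaps 119 bases of Mif4gd exons on the opposite strand. Mrps12, of the decoding centre, and Mrps5, of the messenger RNA entry, had log2 fold changes of 0.58 ± 0.40 and -0.05 ± 0.30 (SE; adjusted p = 0.31 and 0.918). Mrps22 also did not pass, nor did Mrps30 and Mrps36, whose products lie outside the small subunit (log2 fold changes from 0.34 to 0.46).

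Of 47 tested genes with Mrpl names, 8 rose in DOX against control and 2 fell, beside 12.4% and 9.71% of all genes tested. Mrpl44 (chr1:79776018-79781445, plus strand), whose product has an RNase III-like fold, was at 3.38, 13.7 and 8.96 units in the controls and 22.5, 30.8, 19.4 and 22.6 units with DOX. The groups did not overlap (log2 fold change 1.51 ± 0.45 SE, adjusted p = 0.0251). Mrpl20 (chr4:155802878-155809975, plus strand), an RNA-binding protein of early large subunit assembly in bacteria, was at 32.3, 27.3 and 24.5 units in the controls and 48.4, 57.5, 48.4 and 64.0 units with DOX. Its control libraries were close together and its mean was 1.95 times as high with DOX (log2 fold change 0.94 ± 0.21 SE, adjusted p = 0.00612). Mrpl22 (chr11:58171661-58179565, plus strand), whose product lines the exit tunnel of the nascent chain, was at 22.8, 36.8 and 31.1 units in the controls and 50.2, 65.5, 55.6 and 55.4 units with DOX. It was 1.87 times as high on average, without overlap (log2 fold change 0.90 ± 0.22 SE, adjusted p = 0.0101). Mrpl13 (chr15:55534094-55557748, minus strand) was at 163, 146 and 152 units in the controls and 208, 231, 244 and 270.3 units with DOX. This smaller change was without overlap as well (log2 fold change 0.62 ± 0.18 SE, adjusted p = 0.0203).

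The stalk gene Mrpl10 and Mrpl3, whose product lies near the peptidyl transferase centre, rose by log2 fold changes of 1.13 ± 0.34 and 0.84 ± 0.28 (SE; adjusted p = 0.0287 and 0.0415). The other large subunit genes that rose were Mrpl49 and Mrpl42, with log2 fold changes of 0.94 ± 0.25 and 0.54 ± 0.19 (SE; adjusted p = 0.014 and 0.0487), named after their values were seen. The 3′ ends of Mrpl10 and Mrpl49 overlap exons of Gm11574 (17 bases) and Syvn1 (91 bases) on the opposite strand. Several genes with central roles did not pass the test, including Mrpl2 of the catalytic core (log2 fold change 0.25 ± 0.21 SE, adjusted p = 0.413) and Mrpl45, whose product sits at the tunnel exit by the inner membrane (log2 fold change 0.43 ± 0.28 SE, adjusted p = 0.288). Mrpl33, the member with the highest mean, was also among them (log2 fold change 0.42 ± 0.31 SE, adjusted p = 0.342).

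Both genes that fell with DOX encode mitochondria-specific proteins of the large subunit. Mrpl48 (chr7:100545751-100608301, minus strand) was at 64.6, 48.0 and 64.2 units in the controls and 41.2, 30.1, 36.2 and 34.5 units with DOX. All DOX values were below all control values (log2 fold change -0.71 ± 0.20 SE, adjusted p = 0.0179). Mrpl58 (chr11:115403752-115412674, plus strand), also known as Ict1, encodes a peptidyl-tRNA hydrolase that releases chains from stalled mitochondrial ribosomes and is built into the large subunit. It was at 64.8, 32.0 and 36.1 units in the controls and 19.6, 23.4, 23.6 and 24.7 units with DOX. The groups did not overlap and control replicate 1 was the highest (log2 fold change -0.86 ± 0.27 SE, adjusted p = 0.035). For Mrpl58, the call was lost without any one of control replicates 1 and 5 or DOX replicates 1, 2, 3 and 4 (adjusted p = 0.052 to 0.132). For Mrpl48 it was lost without control replicate 5 or DOX replicate 2 (adjusted p = 0.0712 and 0.0527).

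**Figure D3:**
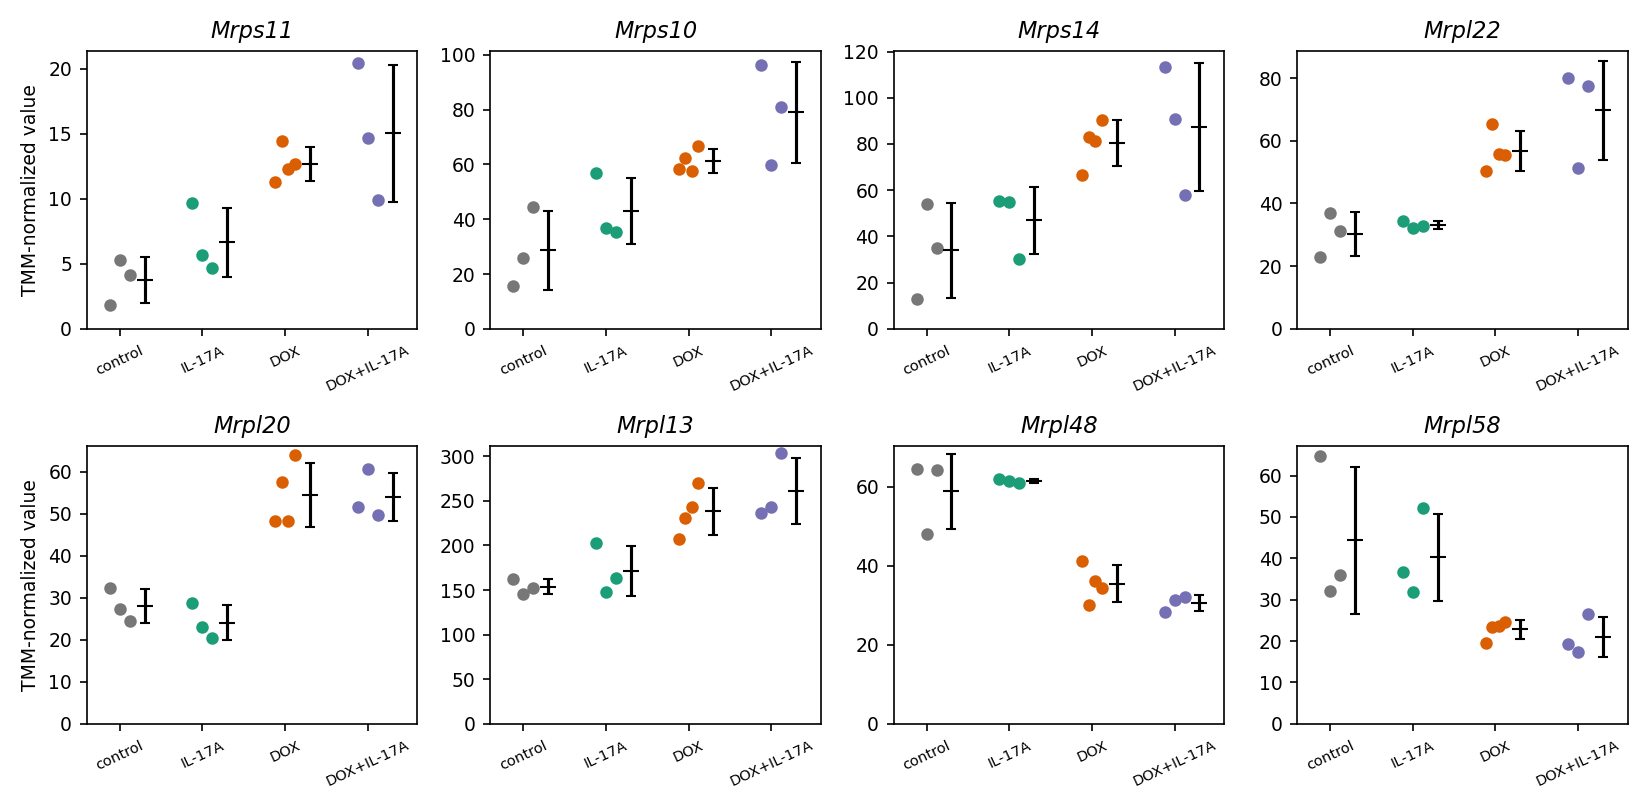
TMM-normalized values of 8 members in each library by group, with the mean and SD of the group beside the points; each vertical axis starts at 0. In Mrps11, Mrps10, Mrps14, Mrpl22, Mrpl20 and Mrpl13 all DOX libraries are above all controls, and in Mrpl48 and Mrpl58 all are below.

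Control replicate 1 weighed on these results in both directions. It had the lowest value of the controls for 10 of the 13 genes that rose (76.9%, against 59.2% of all genes that rose) and the highest for both genes that fell. Without it the changes of Mrps11, Mrps14, Mrps10 and Mrps18c were smaller. Their log2 fold changes were then 1.26, 0.86, 0.83 and 0.88, with adjusted p from 0.0167 to 0.0437 (limma). Mrpl44, Mrpl10, Mrpl3, Mrpl42 and Mrps2 lost their call without it (adjusted p = 0.0846 to 0.132). Mrpl16, Mrps12 and Mrps18a gained one in the higher direction, with log2 fold changes of 1.28, 1.19 and 0.99 and adjusted p = 0.00088, 0.0111 and 0.021. Mrps7 passed there as well (adjusted p = 0.0376), and Mrpl23 passed in the lower direction (adjusted p = 0.00652). For Mrps12 that library was at 53.8 units against 13.8 and 15.3 units in the other controls. Over the family, 16 genes rose and 3 fell without control replicate 1, against 11.7% and 9.94% of all genes tested, and the median was 0.31. Without DOX replicate 2, 8 rose and 0 fell, and the share of all genes in that fit is not given here.

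Several single calls were lost when 1 library was left out. Among the genes that rose in DOX against control, Mrpl3 lost its call in 8 of 13 fits that left out 1 library (adjusted p = 0.051 to 0.132). Mrpl13 lost it without control replicates 3 or 5 or DOX replicates 3 or 4 (0.0512 to 0.0655). Mrpl44 lost it without control replicate 1 or DOX replicates 2 or 4 (0.0519 to 0.0906), Mrpl10 without control replicate 1 or DOX replicates 2 or 3 (0.0546 to 0.102), and Mrps2 without control replicate 1 or DOX replicate 2 (0.0846 and 0.0743). Mrpl42 lost it in 10 fits (0.0521 to 0.131), and Mrpl49 without control replicate 5 (0.0602). For Mrpl3 and Mrpl42, some of these fits left out a library of neither group compared. Their log2 fold changes then stayed at 0.84 and 0.54, so these calls lay close to the threshold. Mrps11, Mrps14, Mrps10, Mrps18c, Mrpl20 and Mrpl22 kept theirs in all 13 such fits.

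The promoters of 4 members are printed here, because factors known to act on nuclear mitochondrial genes bind close to the transcript start. Windows from 250 bases before to 50 bases after the transcript start were taken from RefSeq on GRCm38.p6, and 67 of 76 members had at least 1 window (73 windows). They were searched on both strands for CCGGAAG (ETS/GABPA), AAGATGGCG (YY1), CACGTG (E-box) and the NRF1 motif, which stands in capitals in the Mrpl44 window and has 1 free base in its middle, none of which contains another. The ETS/GABPA letters were in 34.2% of member windows, against 17.9% of windows of genes tested and 8.86% of all windows. The NRF1 letters were in 17.8%, 10.04% and 4.6%, the YY1 letters in 9.59%, 3.0% and 1.4%, and the E-box letters in 8.22%, 9.89% and 7.15% of these windows in the same order. Of the 12 windows of genes that rose with DOX, 3 held the ETS/GABPA letters, 1 the NRF1 letters, 2 the YY1 letters and 2 the E-box letters. The windows below are those of Mrps11, which rose most, Mrpl44, which rose most in the large subunit, Mrpl22, which rose in both comparisons of DOX, and Mrpl58, which fell. All lie on the plus strand, at chr7:78782881-78783180, chr1:79775768-79776067, chr11:58171414-58171713 and chr11:115403502-115403801, with the YY1, NRF1, ETS/GABPA and ETS/GABPA letters in capitals.
Mrps11: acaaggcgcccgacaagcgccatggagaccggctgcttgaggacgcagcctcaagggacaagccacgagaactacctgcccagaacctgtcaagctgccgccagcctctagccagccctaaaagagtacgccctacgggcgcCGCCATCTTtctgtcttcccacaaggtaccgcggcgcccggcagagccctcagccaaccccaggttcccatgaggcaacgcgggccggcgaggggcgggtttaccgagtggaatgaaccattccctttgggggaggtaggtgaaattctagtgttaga
Mrpl44: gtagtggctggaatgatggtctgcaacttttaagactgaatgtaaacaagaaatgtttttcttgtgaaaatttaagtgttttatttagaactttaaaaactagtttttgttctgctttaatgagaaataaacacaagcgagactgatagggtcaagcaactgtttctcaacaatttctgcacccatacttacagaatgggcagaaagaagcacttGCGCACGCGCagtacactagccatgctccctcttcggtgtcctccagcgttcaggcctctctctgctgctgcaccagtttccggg
Mrpl22: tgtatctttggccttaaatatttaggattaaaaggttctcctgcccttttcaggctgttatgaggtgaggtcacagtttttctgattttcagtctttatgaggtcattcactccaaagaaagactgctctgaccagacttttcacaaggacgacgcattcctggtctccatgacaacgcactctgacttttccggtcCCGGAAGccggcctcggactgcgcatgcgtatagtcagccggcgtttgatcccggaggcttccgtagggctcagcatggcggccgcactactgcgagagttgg
Mrpl58: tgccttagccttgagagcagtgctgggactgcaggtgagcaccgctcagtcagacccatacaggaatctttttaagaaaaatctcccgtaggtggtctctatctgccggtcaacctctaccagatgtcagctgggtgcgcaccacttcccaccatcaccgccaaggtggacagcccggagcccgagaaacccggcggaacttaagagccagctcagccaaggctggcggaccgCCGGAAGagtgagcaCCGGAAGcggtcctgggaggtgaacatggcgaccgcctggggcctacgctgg
The ETS/GABPA letters thus stood in a gene that rose and in one that fell. A match describes letters in this window and not a bound site.

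DOX was also compared between libraries that all received IL-17A, a comparison that shares no library with DOX against control. In DOX+IL-17A against IL-17A, 5 of 75 members rose (6.51% of all genes tested) and 2 fell (6.75%), and 22 passed an unadjusted p under 0.05 (28.5%). The median log2 fold change was 0.25, against 0.02 for all genes tested, and 53 genes were above 0 (51.3% of all genes tested) and 22 below (48.7%). Groups did not overlap for 21 genes in the higher direction (16.4%) and 7 in the lower (15.5%). All 7 called genes carry large subunit names. Of 28 genes with small subunit names 0 passed, and 8 had an unadjusted p under 0.05. With the replicate number as a block over all 13 libraries, 7 members rose (7.56% of all genes tested) and 2 fell (7.93%). The labels do not say whether the numbers pair libraries. Mrps12 and Mrps7 of the small subunit then passed (adjusted p = 0.0427 and 0.0405) and Mrpl13 did not (adjusted p = 0.0531). Mrps12, of the decoding centre, had the largest fold change of all members here, at 10.48, 10.7 and 25.3 units in IL-17A replicates 2, 3 and 5 and 34.6, 31.5 and 38.7 units in DOX+IL-17A replicates 2, 3 and 5. Its groups did not overlap, and it missed the threshold without the block (log2 fold change 1.23 ± 0.43 SE, adjusted p = 0.067). By DESeq2 on the recovered reads 11 members rose (9.15% of all genes tested) and 3 fell (8.6%), among them the small subunit genes Mrps11, Mrps10, Mrps7 and Mrps26, which rose (adjusted p = 0.0207 to 0.0482). By voom 5 rose and 2 fell (6.28% and 6.58% of all genes tested).

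Mrpl20 had the largest change of the genes that rose. It was at 28.7, 23.1 and 20.4 units in IL-17A replicates 2, 3 and 5 and at 51.7, 60.6 and 49.7 units in DOX+IL-17A replicates 2, 3 and 5. The groups were far apart (log2 fold change 1.14 ± 0.22 SE, adjusted p = 0.00515). Mrpl22 was at 34.5, 32.2 and 32.7 units with IL-17A and 80.2, 51.3 and 77.5 units with DOX+IL-17A, without overlap (log2 fold change 1.02 ± 0.24 SE, adjusted p = 0.0123). Mrpl16 (chr19:11770391-11774960, plus strand), whose product contacts the transfer RNA sites, was at 38.3, 29.6 and 39.0 units with IL-17A and 64.2, 65.5 and 103 units with DOX+IL-17A. The groups did not overlap (log2 fold change 1.08 ± 0.33 SE, adjusted p = 0.044), but the adjusted p was over 0.05 in 10 of 13 fits that left out 1 library (0.0582 to 0.152).

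Mrpl38 (chr11:116131817-116138868, minus strand), a mitochondria-specific protein of the large subunit, was at 24.0, 27.2 and 28.7 units with IL-17A and 50.3, 40.4 and 47.4 units with DOX+IL-17A. It rose without overlap (log2 fold change 0.77 ± 0.23 SE, adjusted p = 0.0353). Mrpl13 was at 203, 148 and 164 units with IL-17A and 236, 243 and 304 units with DOX+IL-17A. It rose narrowly (log2 fold change 0.61 ± 0.19 SE, adjusted p = 0.0451). In fits that left out 1 library, the adjusted p was over 0.05 in 11 of 13 for Mrpl13 (0.0519 to 0.174), in 7 for Mrpl38 (0.0518 to 0.101), and in 1 for Mrpl22, that without DOX+IL-17A replicate 2 (0.0511).

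In the lower direction, Mrpl48 was at 62.0, 61.5 and 61.0 units with IL-17A and 28.2, 31.3 and 32.1 units with DOX+IL-17A. Its groups were tight and far apart (log2 fold change -0.99 ± 0.21 SE, adjusted p = 0.00764), and it passed in every fit that left out 1 library. Mrpl23 (chr7:142532686-142540747, plus strand), whose product stands at the exit of the nascent chain tunnel, was at 56.3, 53.0 and 60.9 units with IL-17A and 38.6, 22.3 and 27.9 units with DOX+IL-17A. It fell without overlap (log2 fold change -0.95 ± 0.27 SE, adjusted p = 0.0322) and lost its call in 5 of 13 such fits (adjusted p = 0.0679 to 0.13). In DOX against control Mrpl23 did not pass with limma, at 31.6, 54.1 and 63.8 units in the controls and 32.6, 30.2, 26.0 and 27.9 units with DOX (log2 fold change -0.70 ± 0.26 SE, adjusted p = 0.0615). The 3 tests of recovered reads called it lower there (adjusted p = 0.0449 with voom, 0.0442 with edgeR and 0.0151 with DESeq2). Mrpl58 missed the threshold here, at 36.6, 31.9 and 52.1 units with IL-17A and 19.2, 17.4 and 26.5 units with DOX+IL-17A, which did not overlap (log2 fold change -0.89 ± 0.29 SE, adjusted p = 0.0555). DESeq2 called it lower here (adjusted p = 0.0339). The count of members that rose went from 5 to 16 without control replicate 1 (from 6.51% to 11.1% of all genes tested). That library enters this comparison only through the shared estimate of the spread. The count was between 1 and 3 without any single library of the DOX, DOX+IL-17A or IL-17A groups. The share of all genes in those fits is not given here.

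Set side by side, both DOX comparisons gave the same direction for 60 of 75 members (80.0%, against 76.0% of all genes tested). Of these, 47 were higher in both (62.7%, against 41.0%) and 13 lower in both (17.3%, against 35.0%). All 15 members called in DOX against control had the same sign in DOX+IL-17A against IL-17A, as did 96.7% of all genes called there. All 7 members called in the latter had the same sign in the former, as did 98.7% of all genes called. The genes called in both were Mrpl13, Mrpl20 and Mrpl22, which rose, and Mrpl48, which fell. Across the 75 members Pearson's r was 0.63 and Spearman's rho 0.63, against 0.72 and 0.69 across all 12319 genes tested. These correlations are across genes, which are not independent replicates.

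**Figure D4:**
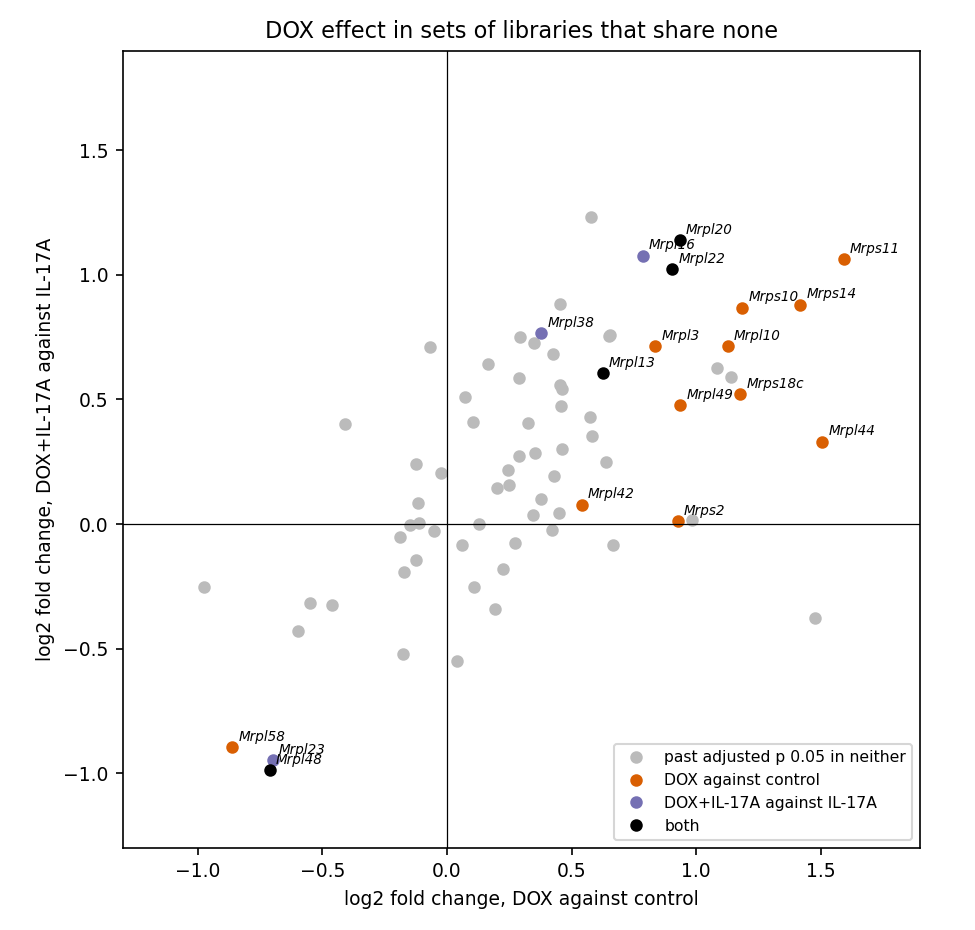
Log2 fold change of each tested member in DOX against control (horizontal) and in DOX+IL-17A against IL-17A (vertical), 2 comparisons with no library in common; colours mark where the gene passed an adjusted p of 0.05. Of the 75 points, 47 are in the upper right, 13 in the lower left and 15 elsewhere.

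DOX+IL-17A was also set against control, which uses the same control libraries as DOX against control. In this comparison 10 members rose (9.37% of all genes tested) and 2 fell (8.34%), with a median log2 fold change of 0.36 against 0.04 for all genes tested. The groups did not overlap for 19 members in the higher direction (15.6%) and 3 in the lower (14.5%). The genes that rose were Mrps11, Mrps10, Mrps14, Mrps22 and Mrps26 of the small subunit and Mrpl22, Mrpl10, Mrpl3, Mrpl20 and Mrpl13 of the large subunit. Mrps11 was at 20.4, 14.7 and 9.92 units with DOX+IL-17A and its mean was 3.99 times the control (log2 fold change 1.77 ± 0.38 SE, adjusted p = 0.00553). Mrps10 was at 96.3, 59.8 and 80.8 units (log2 fold change 1.52 ± 0.32 SE, adjusted p = 0.00474). Mrps14 was at 113, 90.9 and 57.9 units (log2 fold change 1.49 ± 0.40 SE, adjusted p = 0.0197). All of these values were above all control values.

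Mrps22, a mitochondria-specific protein of the small subunit, was at 15.9, 37.7 and 31.4 units in the controls and 62.2, 51.0 and 65.7 units with DOX+IL-17A. Its groups did not overlap (log2 fold change 1.12 ± 0.30 SE, adjusted p = 0.0185), while its DOX libraries, at 27.6, 36.6, 35.5 and 52.4 units, overlapped the controls. Mrpl22 and Mrpl10 rose by log2 fold changes of 1.17 ± 0.24 and 1.16 ± 0.37 (SE; adjusted p = 0.00423 and 0.04). Mrpl58 and Mrpl48 fell by log2 fold changes of -0.99 ± 0.29 and -0.92 ± 0.21 (SE; adjusted p = 0.0298 and 0.00844). Leaving out 1 library ended the call of Mrpl10 in 7 of 13 fits (adjusted p = 0.0509 to 0.138), of Mrpl3 in 3 (0.0803 to 0.134), of Mrpl58 in 3 (0.0821 to 0.104), of Mrps14 in 2 (0.0641 and 0.0823) and of Mrps22 in 2 (0.053 and 0.0569). Mrps26, named after its values were seen, lost its call in 8 (0.0501 to 0.119). The count that rose was 17 without control replicate 1 (10.9% of all genes tested). It was 5 without DOX+IL-17A replicate 2 and 6 without DOX+IL-17A replicate 3. The share of all genes in these 2 fits is not given here, so the counts do not describe the family alone. When only the groups compared entered the fit, 0 members were called in either direction, against 2.48% of all genes higher and 2.39% lower.

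IL-17A alone left the mitochondrial ribosomal protein genes without a called change. In IL-17A against control 0 of 75 members passed with limma in either direction (0.00812% of all genes tested higher and 0.0% lower), 1 had an unadjusted p under 0.05 (3.08%), and edgeR, DESeq2 and voom also called 0. The groups did not overlap for 4 members in the higher direction (3.17%) and 1 in the lower (2.87%). The median log2 fold change was 0.05, against 0.02 for all genes tested, with single genes from -0.64 to 1.24. The gene with the unadjusted p under 0.05 was Mrps2, at 16.9, 37.3 and 38.2 units in the controls and 58.8, 49.8 and 41.3 units with IL-17A. All IL-17A values were above all control values, but the change did not pass the correction (log2 fold change 0.75 ± 0.29 SE, adjusted p = 0.959). The highest fold change belonged to Mrpl39, at 2.20, 49.8 and 26.0 units in the controls and 45.2, 57.1 and 20.6 units with IL-17A, where control replicate 1 was far below the other controls.

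Adding IL-17A to DOX likewise gave 0 called members with limma, edgeR, DESeq2 and voom (0.114% of all genes tested higher and 0.341% lower). The log2 fold changes in DOX+IL-17A against DOX ranged from -0.62 to 0.67 with a median of -0.01, and 37 genes were above 0 (46.4% of all genes tested) and 38 below (53.6%). Groups did not overlap for 3 members in the higher direction (4.66%) and 1 in the lower (5.61%). An unadjusted p under 0.05 was found for 2 members (6.35% of all genes tested), Mrps27 and Mrps22, with log2 fold changes of 0.67 and 0.66 (limma adjusted p = 0.561 and 0.693). Mrpl genes counted as bacterial homologs were above 0 in 18 of 26 cases (median 0.12), and Mrpl genes counted as mitochondria-specific in 4 of 21 (median -0.13). The difference between these lists was not tested. In the test of whether the effect of IL-17A differed with and without DOX, 0 members passed (0.0% of all genes tested), and the 1 member with an unadjusted p under 0.05 (4.51% of all genes tested) was again Mrps2 (difference of log2 fold changes -0.91 ± 0.40 SE, adjusted p = 0.901, limma). The standard errors of these differences, such as 0.40 for Mrps2, leave room for changes that the design could not detect.

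Members were also counted by structural class. In DOX against control, where 12.4% of all genes tested were higher and 9.71% lower, 10 of 41 tested bacterial homologs rose and 0 fell, and 3 of 34 mitochondria-specific genes rose and 2 fell. The difference between the classes was not tested. Their medians were nearly equal, at 0.35 and 0.35. Among genes with Mrps names, all 5 that rose were among the 15 bacterial homologs. Of 13 mitochondria-specific genes with such names 0 passed, and 1 had an unadjusted p under 0.05 (36.5% of all genes tested). The bacterial homologs had, in DOX+IL-17A against IL-17A, 4 genes that rose and 1 that fell, and the mitochondria-specific genes 1 and 1, beside 6.51% and 6.75% of all genes tested. For DOX+IL-17A against control these counts were 8 and 0 for bacterial homologs and 2 and 2 for mitochondria-specific genes, beside 9.37% and 8.34% of all genes tested. Large and small subunit names had like medians in DOX against control, 0.35 and 0.32.

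Other genes of mitochondrial translation were examined from lists of known roles. Their counts stand beside 12.4% of all genes tested higher and 9.71% lower in DOX against control, and 6.51% and 6.75% in DOX+IL-17A against IL-17A, and no list was tested against another. Of the mitoribosome subunits without an Mrp name, 1 of 5 rose in DOX against control. This was Ptcd3, an RNA-binding subunit of the small subunit (log2 fold change 1.48 ± 0.40 SE, adjusted p = 0.0158), while Dap3, the GTP-binding subunit, had -0.77 ± 0.27 SE, adjusted p = 0.053 and did not pass. Among 26 assembly and rRNA modification genes 2 rose and 0 fell (median 0.17). They were Mrm3, a methyltransferase of the large ribosomal RNA, which rose from a mean of 8.38 to 24.9 units (log2 fold change 1.44 ± 0.32 SE, adjusted p = 0.00581), and Ngrn (0.99 ± 0.32 SE, adjusted p = 0.0382). Mrm3 rose in DOX+IL-17A against IL-17A as well (log2 fold change 1.42 ± 0.34 SE, adjusted p = 0.0148), beside Gtpbp10 and Mrm2, with 3 of 26 up and 0 down. Of 16 translation factors 2 rose, Slirp and its partner Lrpprc, which bind mitochondrial messenger RNA, with log2 fold changes of 1.83 ± 0.62 and 0.88 ± 0.28 (SE; adjusted p = 0.0465 and 0.037). In DOX+IL-17A against IL-17A only the recycling factor gene Mrrf passed in that list, and it fell (log2 fold change -0.86 ± 0.26 SE, adjusted p = 0.0416).

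Of the genes of mitochondrial transcription and RNA processing, 5 of 16 were higher and 0 lower in DOX against control (median 0.64) and 4 and 0 in DOX+IL-17A against IL-17A (median 0.39). In DOX+IL-17A against control 1 of 16 was higher and 0 lower, beside 9.37% and 8.34% of all genes tested (median 0.45). In DOX against control they included Supv3l1, the helicase of the mitochondrial RNA degradosome, Fastkd3, an RNA-binding protein, and Pnpt1, the exonuclease of the degradosome, with log2 fold changes of 1.91, 1.58 and 1.02. Trmt10c, a subunit of mitochondrial RNase P, Fastkd5 and Fastkd3 rose in DOX+IL-17A against IL-17A, with log2 fold changes of 1.33, 1.14 and 1.12. The mitochondrial tRNA synthetase list was split, with 2 of 20 higher and 2 lower in DOX against control. Mars2 rose and Fars2 fell there, with log2 fold changes of 1.99 and -1.92, and Vars2 fell in both DOX comparisons (-0.99 and -1.33). Of 10 regulators of nuclear mitochondrial genes, the coactivator gene Pprc1 rose in DOX against control (log2 fold change 1.05 ± 0.27 SE, adjusted p = 0.0123). Nrf1, a factor known to act on promoters of this family, did not pass there (-0.67 ± 0.26 SE, adjusted p = 0.0765) and fell in DOX+IL-17A against IL-17A (-0.93 ± 0.28 SE, adjusted p = 0.0388), as did Sp1. All of these lists had 0 calls in IL-17A against control and in DOX+IL-17A against DOX. Transcripts of the mitochondrial genome were not analysed here.

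Proteins of the cytosolic ribosome gave a different count in the same libraries. Of 86 cytosolic ribosomal protein genes, 2 rose and 27 fell in DOX against control (2.33% and 31.4%, median -0.37). In DOX+IL-17A against IL-17A, 1 rose and 20 fell (1.16% and 23.3%, median -0.65). Among all genes tested, 12.4% were higher and 9.71% lower in DOX against control. In DOX+IL-17A against IL-17A these shares were 6.51% and 6.75%. Their share of reads was 11.3% to 12.4% with DOX and 10.8% to 13.9% with DOX+IL-17A, against 12.3% to 17.4% in the controls and 16.1% to 16.9% with IL-17A. Control replicate 1 was the control with the lowest share. The products of nuclear respiratory chain genes join those made by the mitochondrial ribosome. Of the 81 tested, 8 were higher and 3 lower in DOX against control (9.88% and 3.7%, median 0.35). In DOX+IL-17A against IL-17A, 5 were higher and 1 lower (6.17% and 1.23%, median 0.14). These shares of called genes were close to or below those of all genes tested. The mean share of reads on the respiratory chain list was 1.28 and 1.23 times as high in these comparisons. The differences between these lists were not tested, and each median stands beside 0.09 and 0.02 for all genes.

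**Figure D5:**
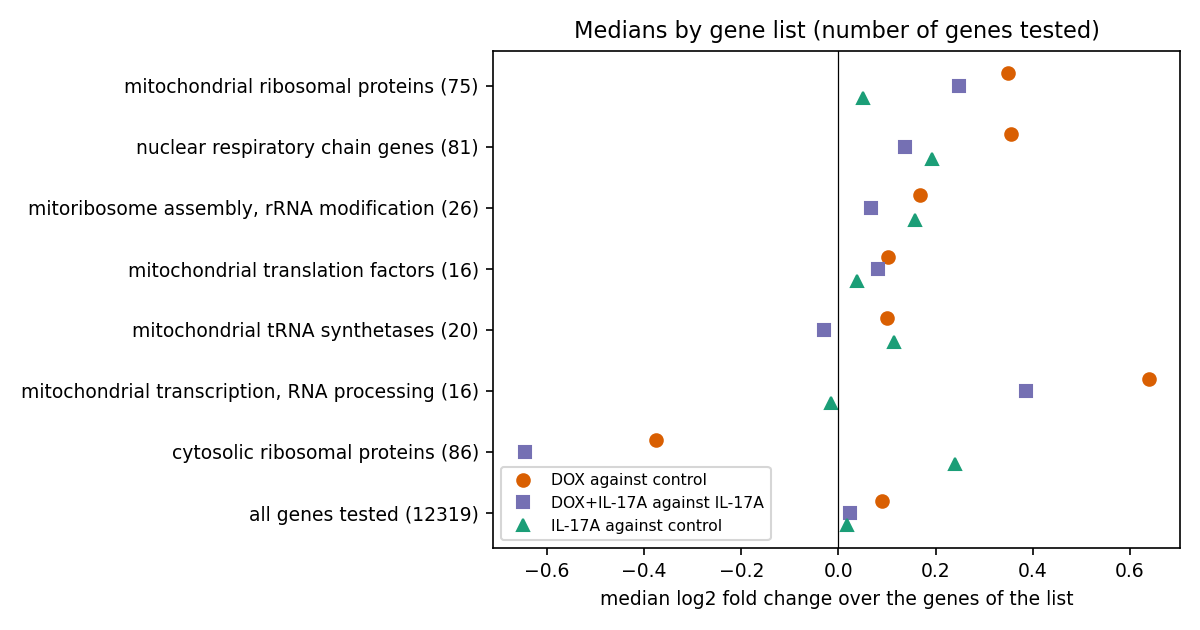
Median log2 fold change over the tested genes of each list, with the number of genes in parentheses, for DOX against control (circles), DOX+IL-17A against IL-17A (squares) and IL-17A against control (triangles). In DOX against control, mitochondrial ribosomal proteins and nuclear respiratory chain genes are at 0.35 and cytosolic ribosomal proteins at -0.37.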

How the data were processed

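Bulk RNA was sequenced by the authors as 3′ mRNA libraries with single 75 base reads. According to the methods and the labels, reads were checked with FastQC, trimmed with Trimmomatic, aligned to mm10 with STAR, counted per gene with featureCounts and normalized by TMM. The authors deposited 1 table of TMM-scaled signal, with genes in rows and libraries in columns, without counts. Of its 13223 entries, 1 was a duplicate and was dropped. All values (100%, within 0.01 of a step) were whole multiples of the value of 1 read, so that reads could be recovered, and TMM factors recomputed from them equalled those implied by the table. Replicates of a group all differed by more than sampling noise (chi-square per degree of freedom 7.65 to 177).

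Because these values are not counts, they were tested as log2(value + 1) by limma with trend. The 4 conditions were the sole term, and all 13 libraries entered 1 fit (9 residual degrees of freedom). Genes with enough recovered reads, as judged by filterByExpr of edgeR, numbered 12319, and Benjamini-Hochberg adjustment was over all of them. A member was called at an adjusted p under 0.05 with no fold limit. The members, gene lists and tests were chosen with earlier results of these data known. Members named in full were, for each comparison, the called genes without overlap of the groups that had the largest changes (up to 5 in each direction), the 3 with the highest and the 3 with the lowest mean, and a list of members with known roles. Up to 3 called genes per list of other pathway genes were named by size of change.

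Groups share some replicate numbers. Deviations from the group means correlated by 0.15 on average in 13 same-numbered pairs and by -0.04 in 50 others. Of these, 8 and 13 were over 0.1. The 3 same-numbered pairs of DOX+IL-17A and IL-17A were at 0.168 to 0.355. The highest value of all was that of a same-numbered pair, control replicate 3 and IL-17A replicate 3, at 0.491. A pair with different numbers, control replicate 1 and IL-17A replicate 5, reached 0.468. The labels do not say what the numbers mean, so it is not known whether they pair libraries. The alternatives were 3 tests of the recovered reads (voom with limma, edgeR's quasi-likelihood test, DESeq2), library size scaling, a pseudocount of 0.1, no filter or a minimum mean of 10 reads, the replicate block, a fit limited to the groups compared, an added fold limit of 2, and the omission of each library. The tests were also run on simulated reads that held no outlying library, and no conclusion is drawn from them here. Gene positions came from GENCODE M21, with all 76 members matched, and promoters from RefSeq. Software was limma 3.58.1, DESeq2 1.42.0 and edgeR 4.0.16 in R 4.3.3, and pandas 2.3.3, numpy 2.4.6, scipy 1.17.1 and matplotlib 3.10.9 in python 3.11.15.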

Additional observations from a re-analysis of the deposited data

Results flagged for a closer look

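Among 37 sets of 4 DOX values, 1 for each member named and 1 for the summed level of all members, 1 held a library far from the others. Sums of other genes, such as the markers, were not put through this rule. Mrps21, a small subunit gene and one of the most abundant members, was at 198 units in DOX replicate 2, against 138, 140 and 144 units in DOX replicates 3, 1 and 4. The gap to the nearest value was 0.893 of the whole range, above the 95% limit of Dixon's test for 4 values. Chance alone marks about 1 in 20 such sets. Mrps21 was not called in any comparison, with a log2 fold change of 0.23 in DOX against control.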

How the results depend on the processing

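Of 426 recomputed counts and medians, 377 stayed close to the values reported and 49 moved. The unmoved ones include counts of 0 that stayed at 0 in the comparisons without a call. Calls were 0 in DOX+IL-17A against DOX, in IL-17A against control and in the interaction under every alternative that was run. In DOX against control, where 13 members rose and 2 fell, the counts were 20 and 0 with library size scaling (17.1% and 6.74% of all genes tested, median of members 0.52 and of all genes 0.24), 6 and 0 with a fold change above 2 (9.15% and 6.18%), and 7 and 0 with the replicate number as a block (8.22% and 6.23%). DESeq2 gave 6 that fell (13.4%) and a fit of only the groups compared 1 (8.34%). In DOX+IL-17A against IL-17A, where 5 rose and 2 fell, 17 and 1 did so with library size scaling (11.5% and 4.37%, medians 0.45 and 0.22), 3 and 0 with a fold change above 2 (4.92% and 4.92%), and 11 rose by DESeq2 (9.15%). The replicate block gave 7 and 2 (7.56% and 7.93%), with calls gained by Mrps12 and Mrps7 and lost by Mrpl13. In DOX+IL-17A against control, where 10 rose and 2 fell, 22 rose with library size scaling (13.5%, medians 0.53 and 0.20), 6 rose and 0 fell with a fold change above 2 (6.95% and 5.95%), 0 rose and 0 fell with only the groups compared (2.48% and 2.39%), and 1 fell with voom (7.9%) and 1 with the replicate block (5.89%). In all comparisons the replicate number is only a shared number, and the labels do not say whether it pairs libraries.

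Leaving out 1 library gave 8 to 16 members that rose and 0 to 3 that fell in DOX against control, 1 to 16 and 1 to 3 in DOX+IL-17A against IL-17A, and 5 to 17 and 1 to 2 in DOX+IL-17A against control. The highest counts that rose came without control replicate 1, where 11.7%, 11.1% and 10.9% of all genes tested rose in the same order. The shares of all genes in the other fits are not given here, so these ranges do not describe the family alone. The count with the same direction in both DOX comparisons was 52 to 64 of 75. For single genes, 98 of the values with 1 library left out lost a call and 31 gained one, and 62 and 43 did so under the other alternatives, with 0 reversed. The causes were not tested. With 3 or 4 libraries a group and 3 reads worth up to 0.613 units, Mrpl12 and Mrps17 were close to the lowest detectable level. Mrps17 was not called in DOX against control by limma (log2 fold change -0.98, adjusted p = 0.125), but was called lower there by DESeq2 (-2.77, adjusted p = 0.0449) and by limma without control replicate 5 (-1.49, adjusted p = 0.0352), over a range of adjusted p from 0.0352 to 0.533.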
